A study of Homo sapiens with 10 samples.

Results

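Accessible chromatin peaks were described at 10 genes of the YAP and TAZ pathway in MDA-MB-231 cells, a widely used human cell line grown from a triple-negative breast cancer. The genes were the coactivators YAP1 and WWTR1 (which encodes TAZ), the DNA-binding factors TEAD1, TEAD2, TEAD3 and TEAD4, and the target genes CCN1, CCN2, ANKRD1 and AMOTL2. A peak was taken where the deposited annotation gave the gene as its nearest, or where it lay within 50000 bases of the gene's span on hg38. This gave 182 of 161934 peaks (0.112%), and 0 peaks were taken for more than 1 of the genes. The peaks came from ATAC-seq, an assay that tags open DNA with the Tn5 transposase, of 5 libraries of ARID1A knockout cells and 5 libraries of control cells. The ARID1A protein belongs to the SWI/SNF complex, which moves nucleosomes. The sources used here do not give how the knockout was made, whether it is a single clone, or what the replicates were taken from. The list covers the whole series and has 0 columns with a value per library, so no difference between ARID1A knockout and control was measured at any gene, and the values carry no replicate error.

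YAP and TAZ have no DNA-binding domain of their own and reach DNA by binding TEAD factors. The kinases LATS1 and LATS2 phosphorylate both coactivators, which keeps them in the cytoplasm, and when the kinases are inactive YAP and TAZ enter the nucleus and switch on genes of growth and adhesion. TEAD factors bind a short motif whose core is CATTCC, or GGAATG when read on the other strand, often near the motif of AP-1 factors. MDA-MB-231 cells are known to carry a mutation of NF2, an upstream activator of the LATS kinases. These points are background and were not measured here.

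The bases before the start of CCN2, ANKRD1, AMOTL2 and YAP1 are shown because each holds at least 1 TEAD core inside a peak. They were read from RefSeq promoters (GRCh38.p14), which matched 7 of the 10 genes with 10 starts. TEAD1, TEAD4 and CCN1 had no entry. Each is 250 bases long, runs 5′ to 3′ along the gene's strand and ends at the base before the start. Capitals mark the TEAD core (CATTCC or GGAATG) and, in ANKRD1, also the AP-1 motif TGANTCA of that promoter.
CCN2, chr6:131951373-131951622, minus strand: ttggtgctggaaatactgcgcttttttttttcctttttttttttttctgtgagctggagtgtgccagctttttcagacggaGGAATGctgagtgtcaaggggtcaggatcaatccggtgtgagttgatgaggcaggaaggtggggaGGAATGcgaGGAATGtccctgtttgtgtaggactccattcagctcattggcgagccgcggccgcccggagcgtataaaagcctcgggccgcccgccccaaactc
ANKRD1, chr10:90921088-90921337, minus strand: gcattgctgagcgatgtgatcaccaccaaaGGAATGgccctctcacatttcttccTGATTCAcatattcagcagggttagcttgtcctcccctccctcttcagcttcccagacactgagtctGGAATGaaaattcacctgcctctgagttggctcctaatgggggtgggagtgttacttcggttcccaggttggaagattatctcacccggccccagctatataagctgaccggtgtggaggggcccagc
AMOTL2, inner start, chr3:134374448-134374697, minus strand: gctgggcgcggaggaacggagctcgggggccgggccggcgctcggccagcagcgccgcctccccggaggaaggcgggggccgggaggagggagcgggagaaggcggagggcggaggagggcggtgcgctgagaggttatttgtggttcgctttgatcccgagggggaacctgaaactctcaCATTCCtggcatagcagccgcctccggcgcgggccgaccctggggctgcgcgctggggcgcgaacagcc
YAP1, chr11:102110197-102110446, plus strand: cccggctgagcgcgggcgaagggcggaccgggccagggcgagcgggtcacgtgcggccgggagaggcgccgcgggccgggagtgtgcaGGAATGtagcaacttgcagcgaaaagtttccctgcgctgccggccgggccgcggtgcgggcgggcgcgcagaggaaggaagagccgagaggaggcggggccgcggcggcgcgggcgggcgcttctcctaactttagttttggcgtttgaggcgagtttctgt

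CCN2 held 3 TEAD cores in these bases, all read as GGAATG along the gene. With the start counted as 0, they lay at -169 to -164, -104 to -99 and -95 to -90, so that 3 bases separate the nearer pair. Of 35116 RefSeq promoters of 300 bases (250 before the start and 50 from it on), 45 (0.128%) held 3 or more cores on either strand. ANKRD1 held 2 cores, at -220 to -215 and -128 to -123, and an AP-1 motif at -195 to -189. Promoters with 2 or more cores made up 1.37% of all.

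AMOTL2 held 1 core at -69 to -64 of its inner start and none at its outer start. YAP1 itself held 1 core at -162 to -157. In all, 4 of the 10 promoters of these genes (4 of the 7 genes with an entry) held the core, beside 14.0% of all 35116 promoters. The longer form ACATTCC was held by 3 of the 10 promoters (CCN2, AMOTL2 and YAP1), beside 3.46% of all promoters. All 7 cores in these promoters lay fully inside a peak. Peaks covered 295 of the 300 bases at CCN2 and all 300 at ANKRD1, YAP1 and the inner start of AMOTL2. Almost any short stretch of these promoters would thus lie inside a peak, so the overlap says nothing particular about the cores.

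The AP-1 motif TGANTCA was held by 1 of the 10 promoters, that of ANKRD1, beside 7.71% of all promoters. The stricter form TGACTCA was held by 0 of the 10, beside 4.95% of all. TEAD2, TEAD3 and WWTR1 held neither a TEAD core nor an AP-1 motif in the 300 bases around any of their entries. A match is only a match of letters in this window, and binding was not measured.

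**Figure D1:**
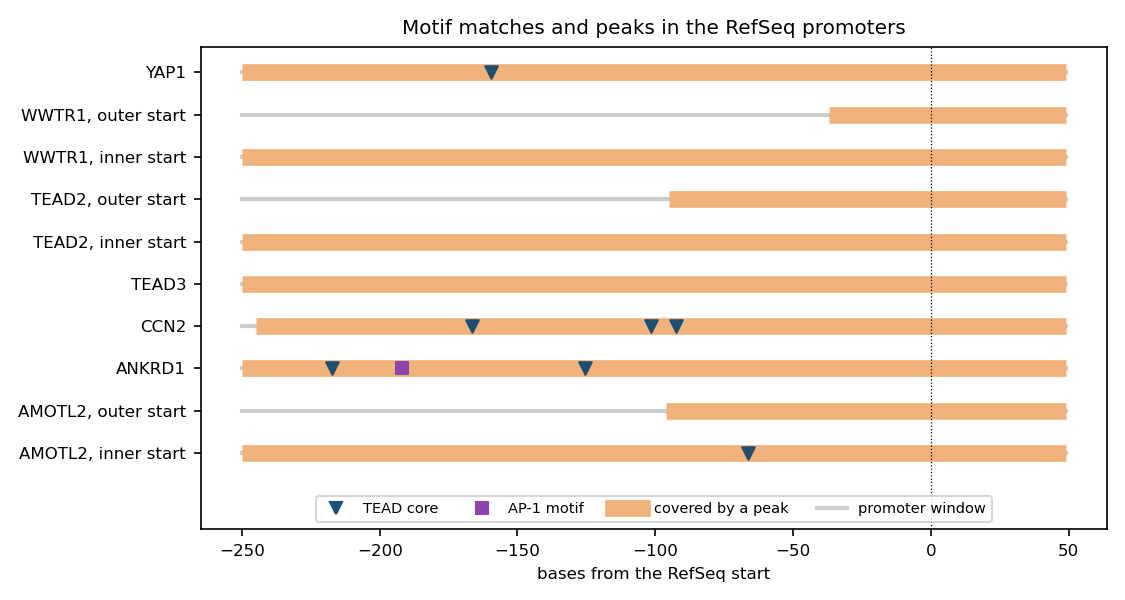
RefSeq promoter windows of the 7 genes with an entry, in bases from the start (x axis), with the stretch covered by a peak as a thick bar, TEAD cores as triangles and the AP-1 motif as a square. CCN2 has 3 triangles and ANKRD1 has 2 beside the square. Every mark lies on a covered stretch, as peaks cover the windows with marks wholly or nearly so.

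The promoters differed in base composition. That of TEAD3 was the richest in G and C, at 81.3% with 44 CpG dinucleotides, beside medians of 58.7% and 14 over all promoters. YAP1 had 70.7% and 40 CpG, and the inner start of AMOTL2 had 72.7% and 37. ANKRD1 had 52.7% and 5 CpG, CCN2 had 54.3% and 15, and the outer entry of WWTR1 had 37.0% and 1. Peaks covered all 300 bases at YAP1, TEAD3 and ANKRD1 and at the inner starts of WWTR1, TEAD2 and AMOTL2, and 295 bases at CCN2. At the outer starts they covered 145 bases for TEAD2, 146 for AMOTL2 and 87 for WWTR1.

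Of the 10 genes, 9 had a peak within 1000 bases of the outermost RefSeq start, beside 74.1% of 18768 protein-coding genes whose strand was known. The start peaks of 6 of the 9 were longer than 1257 bases, the median over protein-coding genes with one (quartiles 959 and 1576 bases). The longest were at TEAD4 (2452 bases), YAP1 (2421 bases) and TEAD3 (2215 bases). These were the only 3 of the 182 peaks with 2000 bases or more, a length that 8.26% of genes with a start peak reached. AMOTL2 had 1954 bases, CCN2 1876 and TEAD1 1285, while TEAD2 had 1108, CCN1 880 and ANKRD1 811. The exception was WWTR1, described below with its several starts.

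The start peaks lay unevenly around the start. Most of the length was inside the gene at YAP1 (600 bases before the start and 1820 after) and CCN2 (245 and 1630). The list also gives YAP1 a start at 102112514, and the whole YAP1 start peak lies ahead of that one. At CCN1 the peak had 169 and 710 bases around the outermost RefSeq start. Around another start that the list gives CCN1, at 85581200, it had 608 before and 271 after. At AMOTL2 and TEAD2 the sides depended on which RefSeq start was taken. The AMOTL2 peak had 96 bases before the outer start and 1857 after, but 1066 before the inner start and 887 after. The TEAD2 peak had 95 and 1012 bases around the outer start, but 994 and 113 around the inner one. At TEAD1 (689 and 595), TEAD3 (1174 and 1040) and TEAD4 (1075 and 1376) both sides were of similar length around the outermost RefSeq start. Another start in the list gave 859 and 425 bases at TEAD1 and 1622 and 829 at TEAD4. A further TEAD1 start in the list, at 12675503, lies past the end of the TEAD1 start peak. At ANKRD1 most of the length lay ahead of the gene, with 716 bases before the start and 94 after. Its peak contains both TEAD cores and the AP-1 motif. The list also gives ANKRD1 a start at 90921276, and around that one the same peak reached 527 bases ahead and 283 bases past it.

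**Figure D2:**
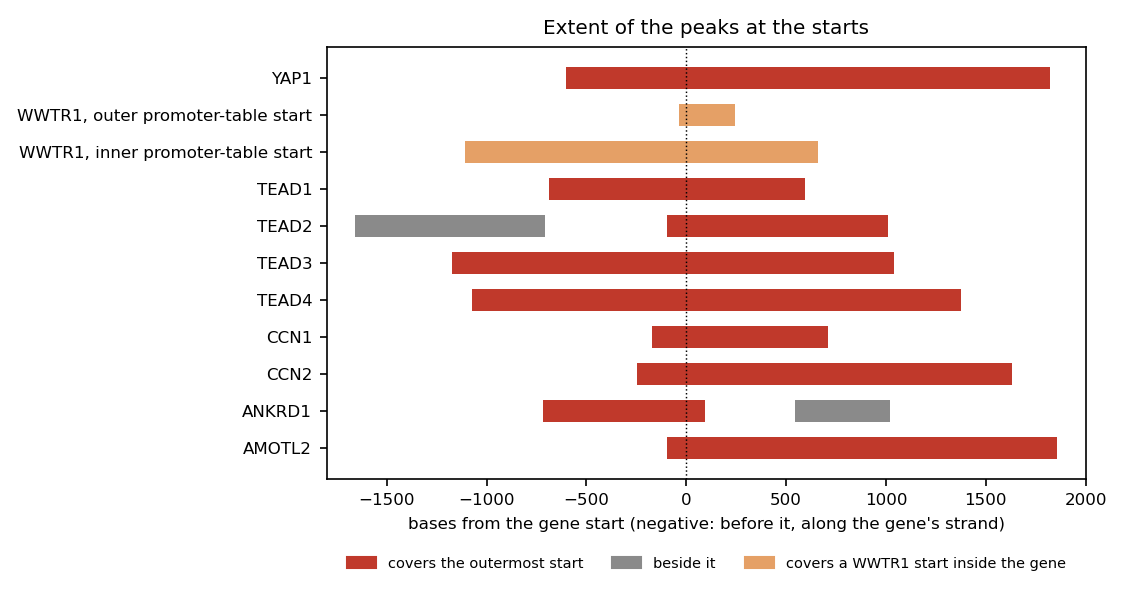
Extent of each peak within 1000 bases of the outermost start, in bases from that start along the gene's strand (x axis), for the 9 genes with one, and of the peaks over the WWTR1 starts in the promoter table. From the outermost start, the peaks of CCN1 and CCN2 extend mainly into the gene and that of ANKRD1 mainly ahead of it. From another CCN1 start in the list, at 85581200, 608 bases lie ahead and 271 after. The AMOTL2 peak extends mainly into the gene only from its outer start, with 1066 bases ahead of the inner start and 887 after.

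By position, 11 of the 182 peaks were start peaks, 81 lay elsewhere in a gene body, 29 in the upstream flank and 61 in the downstream flank. The list placed 81 in introns (44.5%, against 34.1% of the whole list), 52 in promoters of any gene (28.6%, against 30.4%) and 38 in distal intergenic sequence (20.9%, against 29.6%). The rule takes gene spans with 50000 bases around them and leaves out most sequence far from genes. The long genes TEAD1, WWTR1 and YAP1 gave 36, 32 and 20 of the peaks. The intron and intergenic shares are therefore not on a like basis with those of the whole list. Of the intron peaks, 61 were in an intron of the gene itself and 20 in one of a neighbour. Only 79 of the 182 carried the identifier of the gene they were taken for, and 103 were taken by position alone. The median length was 600.5 bases, against 539 bases in the whole list. Peaks of 1000 bases or more made up 24.7% (45 peaks), against 16.9% of the list. Genes were chosen by name, so these shares describe them and were not tested.

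**Figure D3:**
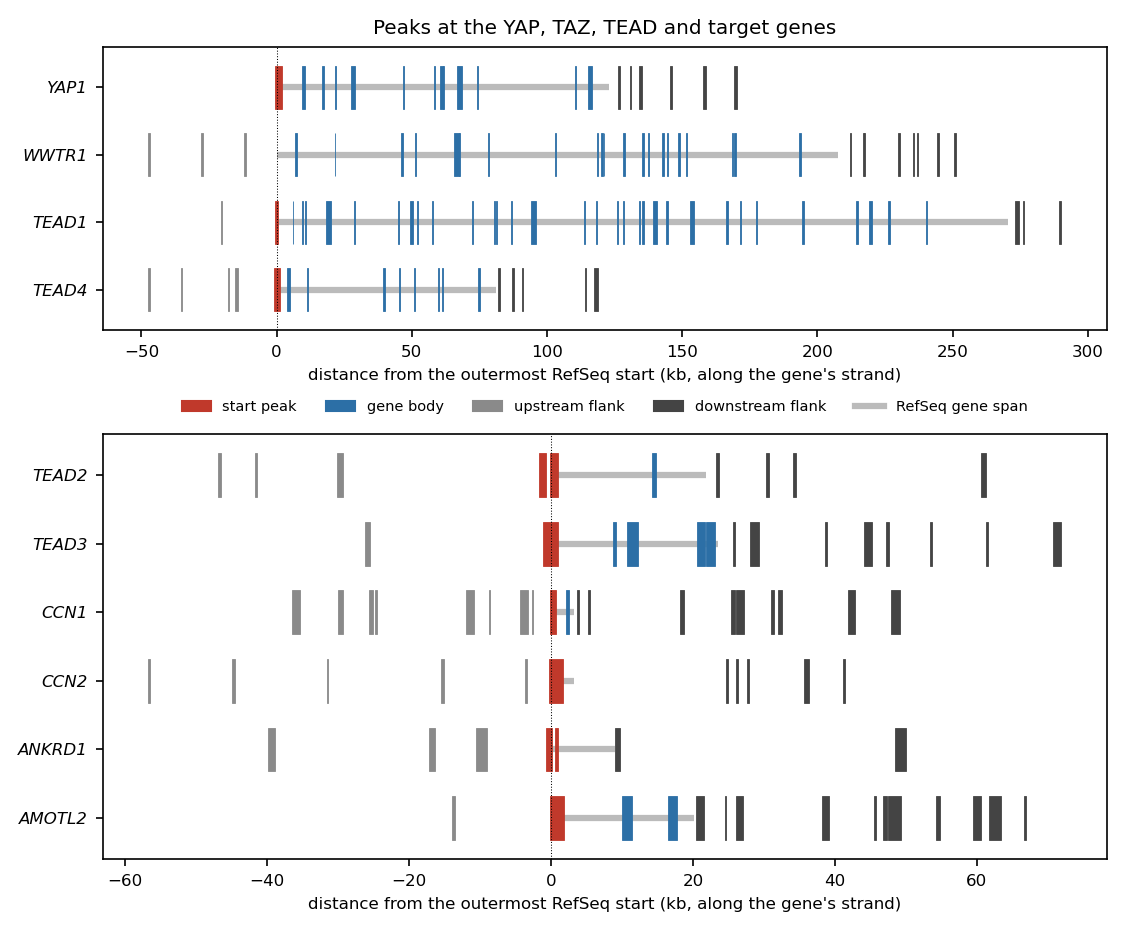
Every peak at the 10 genes, by distance from the outermost RefSeq start in kb along the gene's strand (x axis), with gene spans as grey lines, genes over 50 kb above and shorter ones below. TEAD1 and WWTR1 carry peaks along most of their length, YAP1 has none upstream, and the peaks of AMOTL2 lie mainly downstream.

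YAP1 (ENSG00000137693, chromosome 11, 102110447 to 102233424, plus strand), the gene of the coactivator YAP, had 20 peaks. They were 1 start peak, 13 in the gene body and 6 in the downstream flank, with 0 in the 50000 bases upstream. The start peak, at 102109847 to 102112267, also overlapped the divergent transcript YAP1-DT. Introns 2 and 3 of the list's 6-intron transcript held 5 peaks each. The longest of them had 1589 bases at 102137987 to 102139575 and 1428 bases at 102177483 to 102178910. Near the 3' end a peak of 1373 bases at 102225719 to 102227091 covered another annotated start. The widest stretch between neighbouring peaks spanned 35801 bases, between 102185012 and 102220814. The downstream flank had peaks of 272 to 1063 bases, the longest of them nearest to the pseudogene RPS6P17.

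WWTR1 (ENSG00000018408, chromosome 3, 149517235 to 149724788, minus strand), the gene of TAZ, had 32 peaks: 21 in the gene body, 3 upstream and 8 downstream. No peak lay within 1000 bases of its outermost RefSeq start at 149724788. Other annotated starts did have one. The longest peak of the locus, 1769 bases at 149657366 to 149659134, covered the RefSeq start at 149658025 and reached 1109 bases ahead of it. It also overlapped the antisense gene WWTR1-AS1. Peaks of 280, 1061 and 820 bases covered the starts at 149703273, 149576252 and 149736714, the last of which is annotated outside the RefSeq span. WWTR1 was thus the gene with the most peaks over its own starts, 4 against 2 at YAP1 and TEAD1 and 1 at each of the others. It also had the most starts to be covered. The starts include those of transcripts that the list gives as nearest to a peak, so they depend in part on the peaks.

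Inside WWTR1, intron 3 of the list's 7-intron transcript held 10 peaks, intron 4 held 2, and introns 1 and 5 held 1 each. All 14 were under 1000 bases, the longest of them 820 bases at 149588928 to 149589747. Of the 32 peaks, 14 were listed under another nearest gene. The longest flanking peaks were a pair of 995 bases, in an intron of TM4SF4 and over the pseudogene EEF1A1P45. Relative to YAP1, WWTR1 had more peaks but fewer long ones, with 2 of 32 at 1000 bases or more against 7 of 20.

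TEAD1 (ENSG00000187079, chromosome 11, 12674421 to 12944737, plus strand), the longest of the 10 genes at 270317 bases, had the most peaks, 36. They were 1 start peak, 31 in the body, 1 upstream and 3 downstream. Introns 2 and 3 of the list's 12-intron transcript held 12 and 11 peaks. The longest peaks of the gene lay there and not at the start: 1829 bases at 12768641 to 12770469 and 1798 bases at 12692569 to 12694366, against 1285 bases for the start peak at 12673732 to 12675016. Another annotated start was covered by a peak of 1235 bases at 12827412 to 12828646. The last 32601 bases before the downstream flank peak at 12947570 held none.

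TEAD2 (ENSG00000074219, chromosome 19, 49340595 to 49362416, minus strand), a factor best known from early mouse development, had 10 peaks, only 1 of them listed as nearest to TEAD2. That was the start peak of 1108 bases at 49361404 to 49362511, which covered both RefSeq starts and overlapped DKKL1, a gene that runs the other way. A peak of 955 bases at 49363123 to 49364077, also within 1000 bases of the TEAD2 start, lay over DKKL1 alone. The only other peak in the gene was 564 bases long, in intron 9 of 12. The longest flanking peak, 850 bases, lay in KASH5.

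TEAD3 (ENSG00000007866, chromosome 6, 35473597 to 35497079, minus strand) had 14 peaks, 7 of them of 1000 bases or more. Of these 7, 4 touched the gene of 23483 bases and 3 lay in the downstream flank. Peaks covered 23.5% of its span. The start peak of 2215 bases lay at 35496039 to 35498253 and overlapped the end of TULP1. Intron 2 held a peak of 1643 bases at 35484765 to 35486407. Near the 3' end the list places a pair of long peaks of 1346 and 1136 bases in a 3' untranslated region, from 35473920 to 35475265 and from 35475336 to 35476471. The list gives the microRNA gene MIR7111 as nearest to both, so neither is found by the TEAD3 identifier. The longest flanking peak, 1261 bases, lay at the start of RPL10A, a ribosomal protein gene.

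TEAD4 (ENSG00000197905, chromosome 12, 2959397 to 3040676, plus strand) had 18 peaks, with 1 at the start, 8 in the body, 4 upstream and 5 downstream. The start peak of 2452 bases, at 2958322 to 2960773, was the longest of all 182 and exceeded 98.0% of start peaks of protein-coding genes, ties split evenly. The next in the gene, 1102 bases at 2963240 to 2964341, lay in intron 2. The other 7 body peaks had 249 to 764 bases. The longest flanking peak, 1601 bases, lay at the start of TSPAN9. Among the 4 TEAD genes the start peaks thus formed a long pair, TEAD4 and TEAD3, and a shorter pair, TEAD1 and TEAD2.

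CCN1 (ENSG00000142871, also called CYR61, chromosome 1, 85580761 to 85583950, plus strand) and CCN2 (ENSG00000118523, also called CTGF, chromosome 6, 131948176 to 131951372, minus strand) encode secreted matricellular proteins and are widely used readouts of YAP and TAZ. The genes are nearly equal in length, 3190 and 3197 bases, but their surroundings differed. CCN1 had 19 peaks, of which 6 had 1000 bases or more. CCN2 had 11, of which only the start peak did. The 10 other CCN2 peaks had 181 to 759 bases, and the median over its 11 peaks, 322 bases, was the lowest of the 10 genes (622 bases at CCN1).

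At the starts the order was the reverse. The CCN2 start peak had 1876 bases at 131949742 to 131951617 and covered 51.0% of the gene. That of CCN1 had 880 bases at 85580592 to 85581471, and with a second peak of 413 bases the covered share of CCN1 was 35.2%. The list gives the antisense gene of CCN2 (ENSG00000227220), whose annotated start lies inside CCN2, as nearest to the CCN2 start peak. A search by the CCN2 identifier finds 5 short peaks, all upstream of the gene, and misses the start peak. Reads from both genes' starts cannot be told apart in ATAC-seq.

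Around CCN1, 8 peaks lay upstream, all within the span of DDAH1, and 9 downstream. The longest flanking peak, 1271 bases, was 44652 bases past the gene. Around CCN2, 5 peaks lay upstream and 5 downstream, and no peak was found in the 23043 bases between 131926698 and the start peak. One of the upstream peaks, of 228 bases, lay 56545 bases from the gene and was taken by its identifier.

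ANKRD1 (ENSG00000148677, chromosome 10, 90912096 to 90921087, minus strand), a muscle ankyrin repeat protein and a common YAP and TAZ readout, had the fewest peaks, 7. Both peaks in the gene were near the start, with 811 bases at 90920993 to 90921803 and 478 bases at 90920066 to 90920543. A peak of 740 bases lay just past the 3' end. The longest peaks of the locus were in the flanks: 1558 bases at the start of RPP30, a ribonuclease P subunit, and 1523 bases at 90930179 to 90931701, which is 9092 bases upstream of the gene. A stretch of 38687 bases between 90872617 and 90911305 held none.

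AMOTL2 (ENSG00000114019, chromosome 3, 134355345 to 134375417, minus strand), a junction-associated angiomotin family protein that binds YAP and is itself a YAP target, had 15 peaks with the highest median length of the 10 genes, 1006 bases. Of these, 8 had 1000 bases or more. The start peak of 1954 bases at 134373560 to 134375513 covered the outer and the inner start. The body held peaks of 1484 bases at 134363973 to 134365456 and 1224 bases at 134357702 to 134358925. Of the 12 flanking peaks, 11 lay downstream and 1 upstream, and the longest had 1812 bases at 134326077 to 134327888, nearest to LINC02004. Only 2 of the 15 peaks carried the AMOTL2 identifier.

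**Figure D4:**
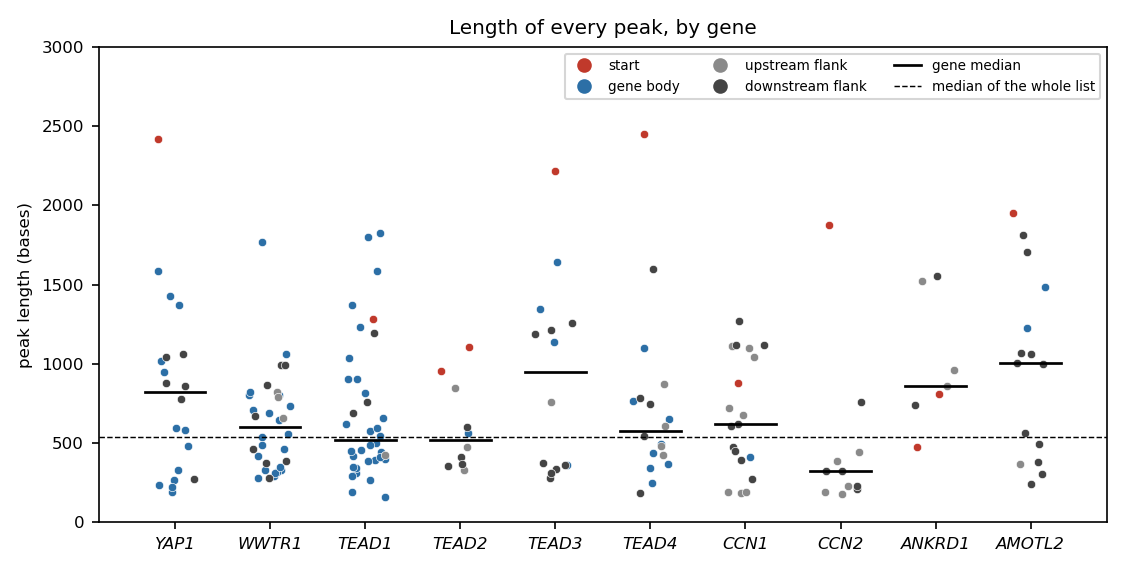
Length in bases (y axis) of all 182 peaks by gene, coloured by position, with each gene's median as a bar and the median of the whole list, 539 bases, as a dashed line. The start peak is the longest at YAP1, TEAD2, TEAD3, TEAD4, CCN2 and AMOTL2, and CCN2 has no other peak above 759 bases.

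Counted over the gene and both flanks by position, the 10 genes had a median of 16.5 peaks, against 12 over 19974 protein-coding genes. These counts grow with gene length. Per 10000 bases the median was 0.983, against 0.858 (quartiles 0.495 and 1.26). The densest was CCN1 with 1.84 peaks per 10000 bases, at a percentile of 95.5% among protein-coding genes. AMOTL2 followed with 1.25 (74.5%) and TEAD3 with 1.13 (68.0%). YAP1 (0.897), WWTR1 (1.04), TEAD1 (0.972), TEAD4 (0.993) and CCN2 (0.969) lay above the median and below the upper quartile. TEAD2 with 0.821 (47.6%) lay just below the median. ANKRD1 with 0.642 (34.9%) lay further below it. DNA copy number differs along the genome of this aneuploid line and was not measured here, and its part in these densities was not tested.

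**Figure D5:**
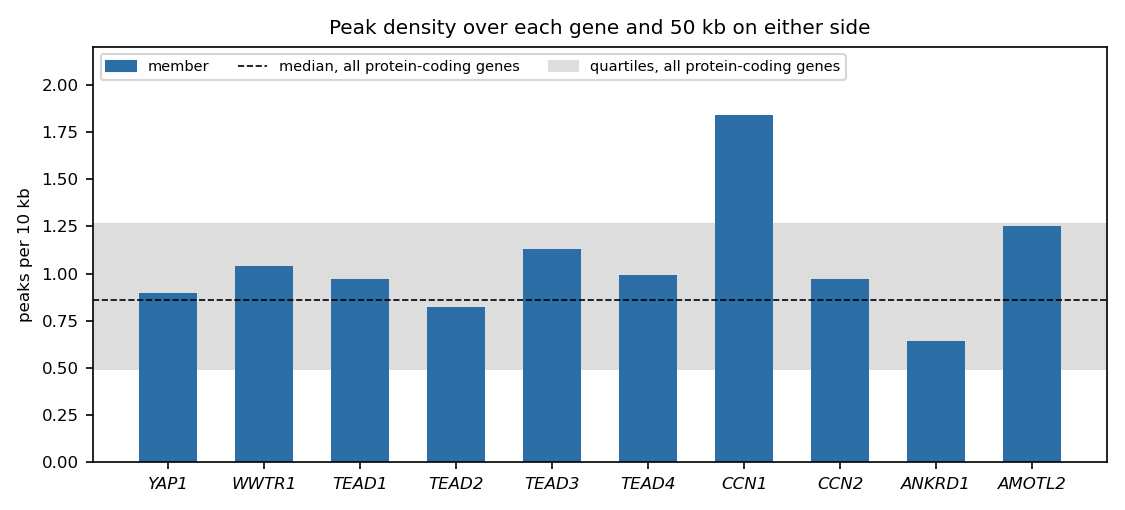
Peaks per 10 kb over each gene and 50 kb on either side (y axis), with the median of all protein-coding genes as a dashed line and their quartiles as a band. CCN1 at 1.84 stands above the band and the other 9 genes lie within it.

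The other genes of the pathway were counted from fixed lists. Of 17 kinases and upstream regulators, 16 had a start peak (94.1%), the longest at PTPN14 (1954 bases), a phosphatase that binds YAP, SAV1 (1932 bases), the scaffold of the Hippo kinases, and WWC1 (1899 bases), which activates LATS kinases. AMOTL1, a relative of AMOTL2, had none at its outermost start, with 11 peaks in the gene. Another annotated start of AMOTL1 was covered by 1 peak. Of 18 further YAP and TAZ targets, 17 had one (94.4%), led by FJX1 (2859 bases), ARHGEF17 (2446 bases) and DOCK5 (2079 bases). FOXF2 had none and no peak in the gene. LATS2 and PTPN14 are in both lists. For these lists, too, the share over all genes with known strand was 74.1%, and no list was tested.

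Of the VGLL cofactors, which compete with YAP for TEAD, 3 of 4 had a start peak: VGLL4 (2422 bases), VGLL3 (1425 bases) and VGLL2 (432 bases). VGLL1 had none and no peak in the gene. Of the other CCN genes, 3 of 4 had one: CCN3 (1416 bases), CCN5 (927 bases) and CCN4 (678 bases). CCN6 had none. The start peaks of CCN3 and CCN5 were longer than the 880 bases at CCN1, and all 3 were shorter than the 1876 bases at CCN2. For both the VGLL and the CCN list, 3 of 4 is close to the share over all genes with known strand, 74.1%. The counts thus set neither list apart, and they were not tested.

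The labelled line was set beside marker genes by start peak. The share of all protein-coding genes with known strand that had a start peak was 74.1%. The marker lists are short and were not tested. All 6 markers of basal or mesenchymal-like lines had one (VIM, CD44, AXL, EGFR, CAV1 and TGFBI). So did 3 of 4 luminal markers with known strand (GATA3, KRT8 and XBP1, not ESR1), close to the share over all genes. Of the leukocyte markers with known strand 0 of 4 had one (PTPRC, SPI1, CD3E and CD79A), and of the endothelial markers 1 of 3 (KDR, not CDH5 or TEK). At ESR1 and at CDH5, 1 peak covered another annotated start.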

How the data were processed

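ATAC-seq was performed on 10 libraries, 5 of ARID1A knockout and 5 of control MDA-MB-231 cells. Per the submitters' processing notes, the authors aligned reads with Bowtie2 2.3.5.1 and called peaks with MACS2 2.2.6 on hg38. The caller's threshold, the handling of duplicates, the merging of libraries and the annotation release (each not given in the sources used here) set the number and the edges of the peaks. The deposited list gives, per the file headers, each peak's position and length in bases and its nearest transcript. It holds 0 values per library, so depth is unknown and no comparison of the groups was possible.

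Members and lists were chosen with earlier results of these data known. Ensembl identifiers were paired with RefSeq genes (GRCh38.p14) by position, where shared bases made up 0.8 or more of the union for names and 0.5 for strand. Strand came from the RefSeq promoter table for 15813 protein-coding genes and from the list for 2955. Where both gave one, 12046 of 12107 were the same. A start peak lies within 1000 bases of the outermost RefSeq start, and flank peaks are neither start peaks nor in the gene. Motifs were searched on both strands, counting each position once. At the edge of the flank, the outermost peak inside lay 47233 bases from TEAD3 (1190 bases long) and the first outside lay 50532 bases from WWTR1 (566 bases long). All members are named, and of each list the 3 with most bases in a start peak and at most 5 that lack one. Python 3.11.15, numpy 2.4.6 and pandas 2.3.3 were used. The peak lookup was tested on simulated data.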

Additional observations from a re-analysis of the deposited data

How the results depend on the processing

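No paired analysis was possible because no column holds a library's values, and for the same reason no replicate could be left out. The number of peaks taken, 182, was 144 and 261 with flanks of 25000 and 100000 bases and 181 by position alone. It was 101 with only peaks of the list's median length or longer and 79 by identifier alone, as both settings keep a part of the peaks by construction. Start peaks were found at 9 of the 10 genes with windows of 500 and 3000 bases and with longer peaks only, beside 70.6%, 82.1% and 68.5% of all protein-coding genes with known strand. With any annotated start, an alternative chosen after seeing the data, they were found at 10. For this alternative no share over all genes was computed. Its starts came in part from transcripts that the list gives as nearest to a peak. A start near a peak was thus more likely to be counted, and the result was partly built in. The median density of 0.983 peaks per 10000 bases was 1.1 with 25000 bases, 0.971 with 100000 and 0.567 with longer peaks only, against 0.88, 0.832 and 0.462 over all protein-coding genes. The TEAD core was held by 4 genes and its longer form by 3, the AP-1 motif by 1 and its stricter form by 0. Of 50 counts per gene under the 5 settings for the peaks taken, 24 stayed within 1.5 times and 26 did not.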
